A study of Mus musculus with 6 samples.

Results

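*Atf4* and 9 genes known as its targets in the stress response and in amino acid and serine synthesis were examined in cultured muscle satellite cells (MuSCs), the stem cells of skeletal muscle. They were chosen by gene symbol as 10 of the 20654 genes in the count table. They are the transcription factor genes *Atf4* and *Ddit3*, *Asns* for asparagine synthesis, the stress regulators *Trib3* and *Sesn2*, *Phgdh* and *Psat1* for serine synthesis, *Shmt2* and *Mthfd2* for mitochondrial one-carbon metabolism, and the cystine transporter gene *Slc7a11*. None of the 9 that could be tested passed an adjusted p of 0.05 between the groups, and 0.784% of all genes tested did. For 7 of these 9 the log2 fold change was below 0 in *Piezo1* cKO relative to control, and for *Asns* and *Sesn2* it was above 0. Of all genes tested, 49.8% had a value below 0.

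ATF4 is a transcription factor whose own mRNA is translated more efficiently when the initiation factor eIF2 is phosphorylated. The kinases that phosphorylate eIF2 sense unfolded proteins in the endoplasmic reticulum, a shortage of amino acids, haem deficiency or double-stranded RNA, and ATF4 then raises transcription of genes for amino acid uptake and synthesis, one-carbon metabolism and feedback control. Because much of this control lies in translation, the *Atf4* mRNA level is only one of the steps that set the amount of the protein, which was not measured here.

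RNA was sequenced from MuSCs of C57BL/6 background as 3 control libraries and 3 libraries labelled *Piezo1* cKO (cKO-labelled libraries below, for a reason given with the *Piezo1* counts). In *Piezo1* cKO mice, floxed *Piezo1*, the gene of a mechanosensitive ion channel, is deleted by a tamoxifen-dependent Cre recombinase expressed from *Pax7*, a gene of MuSCs. Per the paper, deletion was induced by tamoxifen injected into the mice on consecutive days, before cells were isolated. The sample labels call the control mice wild type, whereas a figure legend of the paper gives *Pax7*CreERT2/+ for the RNA-seq comparison. Cre was present in both groups if the latter holds. Cells of both groups were sorted for VCAM1 and against CD31, CD45 and Sca1 and kept for 3 days on Matrigel in medium with 30% foetal bovine serum, 1% chick embryo extract and 10 ng/ml basic fibroblast growth factor, and 1 µM 4-hydroxytamoxifen (4-OH TMX) was in the medium of both. The labels give no age and do not say whether libraries of a group came from separate mice, and p-values then measure only the spread between these libraries. Control libraries 1, 2 and 3 held 740936, 931168 and 891531 counts, and *Piezo1* cKO libraries 1, 2 and 3 held 810096, 726378 and 769295. A count is a cDNA molecule, marked before PCR with a unique molecular identifier (UMI). Levels are given as CPM, counts per 1000000 counts of a library after adjustment of its total by the TMM method of edgeR. On this scale, 3 counts, taken as the floor, correspond to between 3.35 and 4.31 CPM, for counting error only.

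*Piezo1* itself was counted 11, 5 and 6 times in control and 7, 12 and 9 times in the cKO-labelled libraries, and was therefore not lower under the cKO label. The group means of 9.49 ± 5.53 and 12.2 ± 3.50 CPM (SD, n = 3 each) came from overlapping values, and with no filter on low counts edgeR gave a log2 fold change of 0.41 with a standard error of 0.46 and an adjusted p of 0.736. Counts over the whole gene include any transcript that lacks the floxed exons. Counts this low cannot check the labels, and no exchange of labels is claimed. Every direction below rests on the labels.

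The cells carried the markers of their type. *Myod1*, which encodes the myogenic factor MyoD, was the most abundant of 9 myogenic stem cell and myoblast genes, whose summed level lay between 2317 and 2928 CPM in the 6 libraries. The 4 endothelial genes together reached at most 18.6 CPM, with *Tek* as the most abundant, the 3 haematopoietic genes 27.9 CPM, with *Cd68* as the most abundant, and the 4 Schwann cell genes 10.1 CPM, with *Mbp* as the most abundant. Markers of other kinds of cell were present, with summed levels of 199 to 349.5 CPM for 8 fibroblast genes (*Col3a1* the most abundant, *Pi16* without a count), 106 to 564 CPM for 5 smooth muscle and pericyte genes and 147 to 239 CPM for 4 tenocyte genes. Markers of differentiating muscle varied far more, and control 2 and *Piezo1* cKO 2 stood apart. The summed level of 12 such genes, of which *Acta1* (skeletal muscle actin) was the most abundant, was 462, 161 and 383 CPM in control and 667, 1932 and 879 CPM in the cKO-labelled libraries. *Myog*, the gene of the differentiation factor myogenin, had 3 counts in control 2 and 203 in *Piezo1* cKO 2, against 40 and 45 in the other control and 63 and 92 in the other *Piezo1* cKO libraries. Values of the 9 tested genes are therefore also given without control 2, and other values where leaving out one or both of these libraries turned their direction or changed a call. In such bulk samples, fewer cells of a type and less RNA per cell cannot be told apart.

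ATF4 acts with C/EBP proteins on a composite element whose core is TGATGNAA, here searched on both strands of the promoters that RefSeq gives for GRCm38.p6, from 250 bases before to 50 after each start. All 10 genes matched a promoter, and the core was found in *Asns*, *Slc7a11* and *Trib3*. It was present in 3.97% of the 32841 promoters and in 4.51% of the 27018 genes. The stricter form TGATGCAA, which is one of the forms of that core, was found in *Slc7a11* alone among the 10, against 1.03% of genes. Of 40 other genes known as ATF4 targets, 31 matched a promoter and 11 of these held TGATGNAA, among them *Chac1*. The stricter form was held by 9 of the 31. These letters are a description of the sequence, and binding was not measured. The matches before the start are shown for *Slc7a11*, *Asns* and *Chac1*. The *Trib3* match lies after its start. Each run is 5′ to 3′ along the strand of its gene with the match in capitals. The lines give, in order, the *Slc7a11* match that begins 66 bases before the start (chr3:50443652-50443699, minus strand), a second *Slc7a11* match on the opposite strand that begins 47 bases before it (chr3:50443633-50443680), the *Asns* match that begins 23 bases before its RefSeq start (chr6:7693210-7693252, minus strand), and so within the GENCODE gene model, which starts further upstream, and the *Chac1* match that begins 193 bases before its start on the strand opposite the gene (chr2:119351029-119351076, plus strand).
Slc7a11, first match: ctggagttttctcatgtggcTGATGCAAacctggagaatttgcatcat
Slc7a11, second match: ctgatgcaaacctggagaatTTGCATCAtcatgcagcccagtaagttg
Asns: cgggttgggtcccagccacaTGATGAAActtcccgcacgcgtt
Chac1: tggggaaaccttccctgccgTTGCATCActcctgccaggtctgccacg

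*Atf4* (GRCm38 chromosome 15, 80255184 to 80257541, plus strand) was at 328, 419 and 285 CPM in control and 299, 246 and 281 CPM in the cKO-labelled libraries. Control 2 was the highest and *Piezo1* cKO 2 the lowest of the 6, and the groups overlapped because control 3 lay below *Piezo1* cKO 1. The means were 344 ± 68.8 and 275 ± 27.2 CPM (SD, n = 3 each), and their log2 fold change was -0.32 with a standard error of 0.14. The unadjusted p was 0.022 and the adjusted p 0.308 (quasi-likelihood test of edgeR, Benjamini-Hochberg adjustment over the 8551 genes tested). Without control 2 the log2 fold change was -0.15 (adjusted p = 0.829, edgeR), and without both control 2 and *Piezo1* cKO 2, a fit chosen after the data were seen, it was -0.075 (adjusted p = 0.95, edgeR).

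*Ddit3*, on chromosome 10 from 127290774 to 127296288, encodes CHOP, a C/EBP family protein that is induced through ATF4 and is known for its part in cell death under prolonged stress. Its counts were low (7, 25 and 15 in control, 14, 11 and 8 under the cKO label), and the annotation places a second gene model of the same symbol over it, so that reads could be divided between them. The levels of 10.1, 27.9 and 17.7 CPM in control spanned those of 17.7, 14.5 and 10.6 CPM in the cKO-labelled libraries. Its log2 fold change was -0.41 with a 95% interval from -1.15 to 0.32 (adjusted p = 0.717, edgeR), which includes a 2-fold difference, and without control 2 it was 0.019.

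*Asns*, on chromosome 6 from 7675169 to 7693254 on the minus strand, encodes asparagine synthetase, which makes asparagine from aspartate and glutamine. It was at 109, 172 and 157 CPM in control and 161, 147 and 158 CPM in the cKO-labelled libraries. Control 1 was the low library here, and the 3 *Piezo1* cKO libraries lay within the control range. A log2 fold change of 0.074 was found, with a 95% interval from -0.23 to 0.38 (adjusted p = 0.909, edgeR). Without control 1 it was -0.081, so that its sign rested on that library, and without control 2 it was 0.21.

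*Trib3*, on chromosome 2 from 152337422 to 152344032, encodes a pseudokinase that binds and restrains ATF4. It was counted 6, 19 and 5 times in control and 8, 15 and 6 times under the cKO label and was the 1 gene of the 10 that did not pass the filter on low counts. The second library was the highest in each group, and the groups overlapped. With no filter edgeR gave a log2 fold change of 0.038 with a standard error of 0.43 and an adjusted p of 0.987, so that no difference was detectable at this depth.

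*Sesn2*, on chromosome 4 from 132492032 to 132510501, encodes sestrin 2, a leucine-binding protein that restrains the growth kinase complex mTORC1. Of the 9 genes tested it had the highest log2 fold change. The levels were 17.3, 24.5 and 11.8 CPM in control and 34.2, 22.5 and 21.2 CPM in the cKO-labelled libraries, and control 2 lay above the second and the third of these. A log2 fold change of 0.53 had a 95% interval from -0.12 to 1.18 (adjusted p = 0.537, edgeR), and it ranged from 0.27 without *Piezo1* cKO 1 to 0.86 without control 2 (adjusted p = 0.449, edgeR) when 1 library was left out.

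The serine synthesis pathway diverts a glycolytic intermediate to serine. *Phgdh*, on chromosome 3 from 98313170 to 98339990, encodes phosphoglycerate dehydrogenase, its first enzyme. It was at 440.1, 419 and 325 CPM in control and 388, 302 and 366 CPM in the cKO-labelled libraries. The groups overlapped here too, since control 3 lay below *Piezo1* cKO 1 and 3. Its log2 fold change was -0.16 with a standard error of 0.14 (adjusted p = 0.694, edgeR), and without control 2 it was -0.11.

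*Psat1*, on chromosome 19 from 15904678 to 15947337, encodes phosphoserine aminotransferase, the next enzyme of the pathway. It was at 279, 307 and 226 CPM in control and 254, 182 and 223 CPM in the cKO-labelled libraries. Control 2 was again the highest and *Piezo1* cKO 2 the lowest, and *Piezo1* cKO 1 lay above control 3. The log2 fold change was -0.30 with a standard error of 0.14 and an adjusted p of 0.379 in edgeR (0.0368 unadjusted), and without control 2 it was -0.19. *Psph*, the gene of the phosphatase that completes serine synthesis, was at 83.4 ± 8.27 and 78.2 ± 4.21 CPM (SD, n = 3 each), with a log2 fold change of -0.087 (adjusted p = 0.913, edgeR), and is named after its values were seen to complete the pathway.

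*Shmt2*, on chromosome 10 from 127517123 to 127522444, encodes the mitochondrial serine hydroxymethyltransferase, which splits serine into glycine and a one-carbon unit carried on folate. It was at 245, 300 and 229 CPM in control and 239.6, 176 and 186 CPM in the cKO-labelled libraries. Only *Piezo1* cKO 1 reached the control range. The log2 fold change of -0.37 (standard error 0.14, 95% interval from -0.65 to -0.083) had the smallest p of the 9 genes, 0.0117 unadjusted and 0.241 adjusted in edgeR. Leaving out *Piezo1* cKO 1 moved it to -0.52 with an adjusted p of 0.0472 (edgeR), the only fit among 16 alternatives in which any of the 10 genes passed the threshold. Leaving out control 2 moved it to -0.23 with an adjusted p of 0.69 (edgeR).

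*Mthfd2*, on chromosome 6 from 83305691 to 83325908, encodes the mitochondrial enzyme that oxidises the one-carbon unit released by SHMT2. It was at 186, 247 and 196 CPM in control and 207, 170.4 and 182 CPM in the cKO-labelled libraries. Control 2 was the highest library, and *Piezo1* cKO 1 lay above the other control libraries. The fitted log2 fold change was -0.17 with a 95% interval from -0.46 to 0.11 (adjusted p = 0.685, edgeR), and without control 2 it was -0.031.

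*Slc7a11*, on chromosome 3 from 49892526 to 50443614, encodes the exchanger that imports cystine, the source of cysteine for glutathione, and is also a target of the oxidative stress factor NRF2. It was at 41.7, 43.5 and 31.9 CPM in control and 20.3, 19.8 and 42.4 CPM in the cKO-labelled libraries. The first and second *Piezo1* cKO libraries lay below every control library, while the third lay among them. The fitted log2 fold change of -0.51 (95% interval from -1.06 to 0.047) was the lowest of the 9 genes and had an adjusted p of 0.469 in edgeR. Without *Piezo1* cKO 3 it was -0.96 with an adjusted p of 0.263 (edgeR), without *Piezo1* cKO 2 -0.32 (adjusted p = 0.869), without control 2 -0.40 (adjusted p = 0.747) and without both of the latter -0.22 (adjusted p = 0.933).

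**Figure D1:**
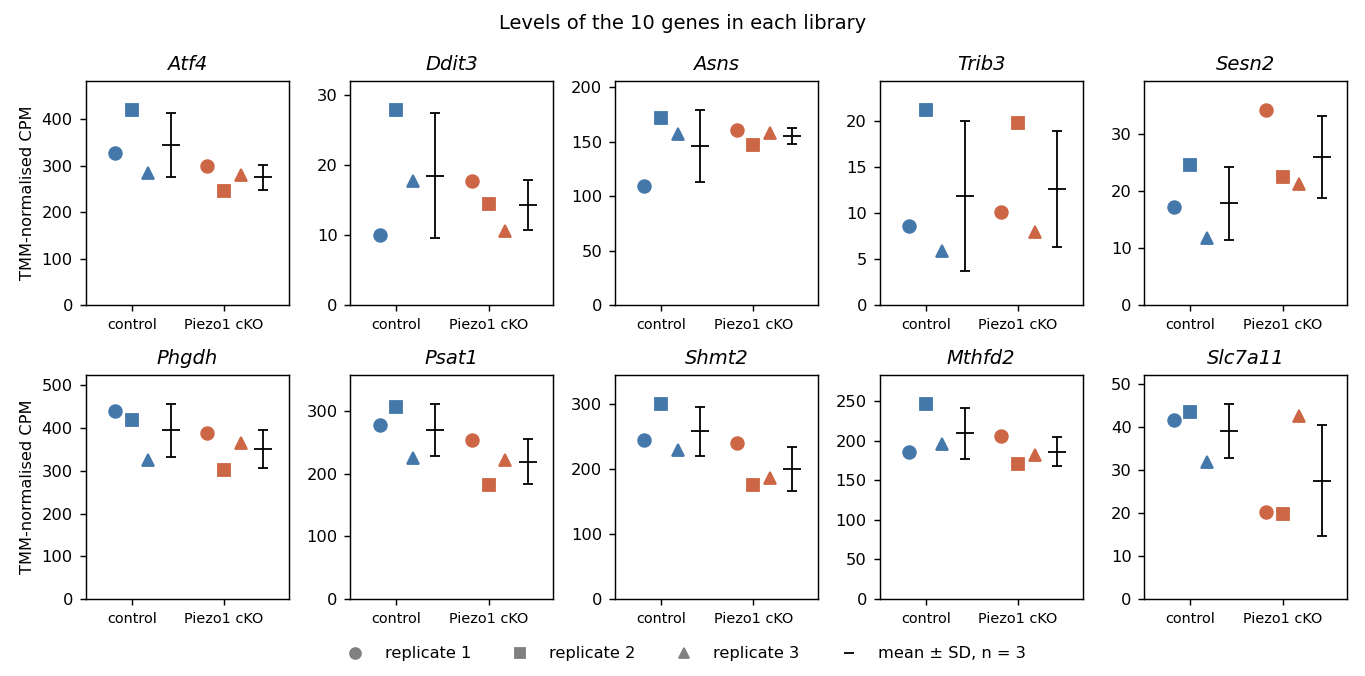
TMM-normalised CPM (y axis, from 0, with its own scale for each gene) of the 10 genes in each library, with blue symbols for control, orange symbols for the cKO-labelled libraries, the shape for the replicate number, and black bars for mean ± SD (n = 3). The 2 groups overlap in each of the 10 genes, and control 2 is the highest library in 8 of them.

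Over the 9 genes tested, edgeR called 0, against 0.784% of all 8551 genes at an adjusted p under 0.05. DESeq2 also called 0 of the 6 to which it gave an adjusted p, the lowest being 0.519 for *Shmt2*, against 0.674% of the 4007 genes with such a value. *Atf4*, *Psat1* and *Shmt2*, 3 of the 9, had an unadjusted p under 0.05 in edgeR with a value below 0, where 11.9% of all genes had such a p in either direction and 5.78% with a lower level. The groups overlapped in all 10 genes, whereas 8.31% of all genes tested were lower and 8.20% higher in all 3 cKO-labelled libraries than in any control library. A two-sided exact permutation test of single genes cannot give a p under 0.1 with 3 libraries against 3. The log2 fold change was below 0 in 7 of 9 genes, against 49.8% of all genes. Its median was -0.30 over the 9 genes and 0.0021 over all genes tested. Without control 2 the median of the 9 genes was -0.11, and without both control 2 and *Piezo1* cKO 2 it was -0.015. In 6 genes (*Atf4*, *Asns*, *Phgdh*, *Psat1*, *Shmt2* and *Mthfd2*) the 95% interval lay within a 2-fold change in either direction, and those of *Ddit3*, *Sesn2* and *Slc7a11*, the genes with the lowest counts of the 9, did not.

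**Figure D2:**
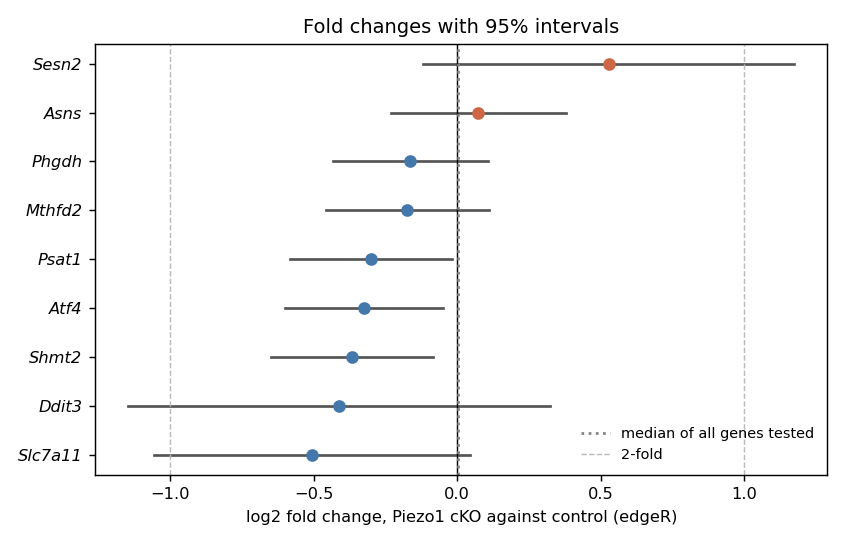
Log2 fold change of the cKO-labelled libraries against control (x axis) from edgeR for the 9 genes tested (y axis), with 95% intervals as lines, orange points for values above 0 and blue points for values below 0, a solid line at 0 and dashed lines at a 2-fold change. The intervals of *Atf4*, *Psat1* and *Shmt2* end below 0 before adjustment for the number of genes tested, and the other 6 include 0.

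The genes varied together across the libraries to differing degrees. Relative to the mean of the 6 libraries on the log2 CPM scale, the 9 tested genes averaged -0.027, 0.37 and -0.093 in control 1, 2 and 3 and 0.067, -0.24 and -0.069 in *Piezo1* cKO 1, 2 and 3. Control 2 was thus the highest and *Piezo1* cKO 2 the lowest library, and the other 4 lay close together with the groups mixed. Control 2 held the highest level of 8 of the 10 genes, the exceptions being *Phgdh* (control 1) and *Sesn2* (*Piezo1* cKO 1). *Piezo1* cKO 2 held the lowest level of 6, namely *Atf4*, *Phgdh*, *Psat1*, *Shmt2*, *Mthfd2* and *Slc7a11*. As a description over 6 libraries that share their preparation, the Pearson correlation of a gene with the mean of the other 8 was 0.951 for *Mthfd2*, 0.937 for *Atf4*, 0.872 for *Shmt2* and 0.859 for *Psat1*, 0.635 for *Phgdh* and 0.588 for *Ddit3*, and 0.319, 0.196 and 0.186 for *Slc7a11*, *Asns* and *Sesn2*. Of the 36 pairs of genes, 31 had a correlation above 0 (median 0.452), with *Atf4* and *Psat1* the closest pair at 0.94. Taken on deviations from the group means, so that the group difference has no part in it, 30 of 36 pairs were above 0 with a median of 0.597.

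**Figure D3:**
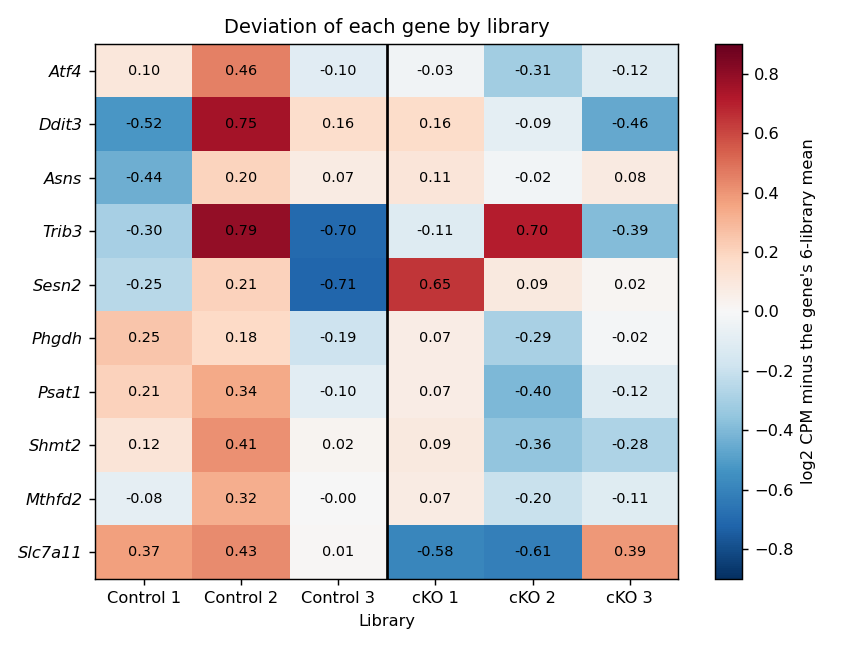
Deviation of each of the 10 genes (rows) in each library (columns) from the mean of that gene over the 6 libraries, on the log2 CPM scale, with red above and blue below the mean and a black line between control and *Piezo1* cKO. The *Atf4*, *Psat1*, *Shmt2* and *Mthfd2* rows are highest in control 2 and lowest in *Piezo1* cKO 2, while *Sesn2* is highest in *Piezo1* cKO 1.

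The same libraries were the extremes of the differentiating muscle markers, in the opposite order. The 9 markers of that list that could be tested averaged -0.22, -1.97 and -0.66 in control and 0.29, 1.91 and 0.65 in the cKO-labelled libraries, relative to the mean of the 6 libraries on the log2 CPM scale. Their Pearson correlation with the mean of the 9 ATF4 pathway genes was -0.852 over the 6 libraries and 0.359 over the 4 without control 2 and *Piezo1* cKO 2, so that the negative value rests on those libraries. All 9 markers had a log2 fold change above 0 (median 2.01). In edgeR 5 of them had an unadjusted p under 0.05 and none had an adjusted p under 0.05. Of all genes tested, 11.9% had such an unadjusted p in either direction. *Actc1* was counted 6, 0 and 0 times in control and 11, 96 and 21 times under the cKO label. It thus passed the low-count filter only through the cKO-labelled libraries. The markers *Myog*, *Mymk*, *Tnni1*, *Mylpf* and *Myl4* met that filter in every cKO-labelled library but not in every control library. Nothing is read from the direction of *Actc1* or of these markers, and the counts, median and correlation above include them. With no filter the median was 2.26 over 12 markers. In alternative edgeR fits the number called was 1 with a replicate block, 4 of 12 with no filter, 2 without control 2, 2 without *Piezo1* cKO 1, 1 without *Piezo1* cKO 2 and 5 without both control 2 and *Piezo1* cKO 2, and 0 in the others, and DESeq2 called 1. *Acta1*, at 66.2, 63.6 and 94.5 CPM in control and 169, 466 and 272 CPM in the cKO-labelled libraries, had a log2 fold change of 2.01 and was called by DESeq2 (adjusted p = 0.00485) but not by edgeR (adjusted p = 0.241). It was called by edgeR with that block (adjusted p = 0.00418), without *Piezo1* cKO 1, without *Piezo1* cKO 2 (adjusted p = 0.0011) and without both control 2 and *Piezo1* cKO 2 (adjusted p = 8.72e-11), where its value was 1.43, but not without control 2 alone (adjusted p = 0.616). The part of this marker difference in the values of the ATF4 pathway genes was not tested.

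**Figure D4:**
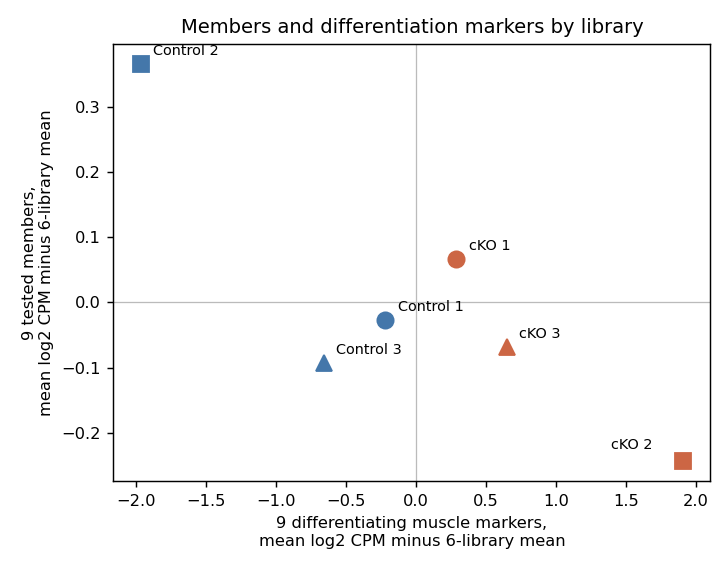
Mean of the 9 tested genes of the ATF4 set (y axis) against the mean of 9 differentiating muscle markers (x axis) in each library, both as log2 CPM minus the mean of 6 libraries, with blue symbols for control and orange symbols for the cKO-labelled libraries. Control 2 is at -1.97 and 0.37, *Piezo1* cKO 2 is at 1.91 and -0.24, and the other 4 libraries lie between them.

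The other marker lists had a median near 0 or rested on few tested genes. Of the myogenic stem cell and myoblast markers, 8 were tested with a median log2 fold change of -0.058, which was 0.012 without *Piezo1* cKO 2. None was called in edgeR or DESeq2, and DESeq2 gave no adjusted p to *Pax7* and *Myf5*. An unadjusted p under 0.05 in edgeR was found for 1 above and 2 below 0, against 11.9% of all genes in either direction. *Sdc4*, the gene of syndecan 4, had a value of -0.53 (adjusted p = 0.0609, edgeR) and *Cdh15*, the gene of M-cadherin, one of 0.53 (adjusted p = 0.118, edgeR). Of 16 alternatives, *Sdc4* passed in 5 (lowest adjusted p = 0.00255, edgeR) but not without control 2 (-0.34, adjusted p = 0.43), and *Cdh15* passed in 1, without control 3 (adjusted p = 0.0101, edgeR). With 1 library left out, 0 to 2 of these markers were called. Of 8 fibroblast markers 2 were tested. *Dcn*, which encodes the matrix proteoglycan decorin, had a value of -2.17 (adjusted p = 3.87e-04, edgeR). Its group means were 31.7 ± 10.3 and 6.91 ± 3.09 CPM (SD, n = 3 each). With 18 to 37 counts per control library and 3 to 8 under the cKO label, *Dcn* passed the filter through the control libraries alone. Nothing is therefore read from the direction of that filtered test. The fit with no filter does not have this limit and gave -2.18 (adjusted p = 1.62e-05, edgeR). *Col3a1*, a fibrillar collagen gene and the most abundant of the list, had a value of 0.41. It passed in 1 of 16 alternatives, without control 3 (0.73, adjusted p = 0.00477, edgeR). The summed fibroblast markers were 199, 201 and 349.5 CPM in control and 285, 308 and 269 CPM in the cKO-labelled libraries, and overlapped. The summed smooth muscle and pericyte markers, of which *Acta2* (smooth muscle actin) was the most abundant, were 240.2, 106 and 474 CPM in control and 407, 564 and 427 CPM in the cKO-labelled libraries. *Cspg4* of this list, a pericyte proteoglycan gene, was at 40.3, 27.9 and 29.5 CPM in control and 49.4, 42.3 and 71.5 CPM in the cKO-labelled libraries, without overlap, with a value of 0.76 (adjusted p = 0.143, edgeR). Among the tenocyte markers, of which *Scx* was the most abundant, *Mkx* was counted 2, 10 and 3 times in control and 11 times in each of the cKO-labelled libraries, through which alone it passed the filter, with a value of 1.21 (adjusted p = 0.256, edgeR). *Cspg4* and *Mkx* are named after their values were seen. No endothelial, haematopoietic or Schwann cell gene passed the filter. The part of these genes in the values of the ATF4 set was not tested.

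The rest of the pathway was described with lists of genes, by counts and medians. Some genes belong to more than 1 list, so that the lists are not independent of each other. For example, *Slc3a2*, *Slc7a5*, *Slc7a1*, *Slc38a2*, *Slc1a4* and *Slc1a5* are counted among both the amino acid transporters and the other ATF4 targets. DESeq2, like edgeR, called 0 genes in each of the 9 lists. In each list, however, DESeq2 gave no adjusted p to some of the tested genes and so could not call them, *Ppp1r15a* and *Eif2ak3* among them. An unadjusted p under 0.05 in edgeR was found below 0 for 2 of 8 eIF2 genes, 3 of 18 serine and folate genes and 2 of 10 transporters. The same held for 2 of 12 proline, asparagine and glutamine genes, 2 of 20 endoplasmic reticulum genes and 3 of 16 NRF2 genes. It was found above 0 for 1 of 20 endoplasmic reticulum genes, and for 0 of 7 bZIP and 0 of 10 sestrin and p53 genes. Of all genes tested, 5.78% had such a p with a lower level and 11.9% in either direction. Beside the counts given for each list, 0.784% of all genes tested were called and 49.8% had a log2 fold change below 0. At so low a share of calls, 0 calls in a short list say little. The groups did not overlap in 8.31% of all genes tested with a lower level and in 8.20% with a higher one. Upstream, 8 of 9 genes for eIF2 subunits, kinases and phosphatase regulators were tested, 0 were called, and the median log2 fold change was -0.043 (5 below 0). That median was 0.060 without control 2 and 0.072 without both control 2 and *Piezo1* cKO 2. *Eif2s1* encodes eIF2alpha, the subunit that is phosphorylated. It was at 575, 568 and 533 CPM in control and 434, 380.4 and 445 CPM in the cKO-labelled libraries, so that the groups did not overlap. EdgeR gave a log2 fold change of -0.41 with a standard error of 0.13 (adjusted p = 0.137 in edgeR and 0.0994 in DESeq2). *Ppp1r15a* encodes GADD34, which recruits a phosphatase to eIF2alpha and is itself a target of the pathway. It was at 51.8, 46.9 and 51.9 CPM in control and 38.0, 39.6 and 27.8 CPM in the cKO-labelled libraries, again without overlap, with a log2 fold change of -0.51 (adjusted p = 0.392, edgeR). *Eif2ak3*, the gene of the endoplasmic reticulum kinase PERK, had a value of 0.46 (adjusted p = 0.703, edgeR) at 5 to 19 counts, which moved to 1.23 without control 2 (adjusted p = 0.414) and to 1.42 without both control 2 and *Piezo1* cKO 2 (adjusted p = 0.326), and *Eif2b5*, for a subunit of the exchange factor of eIF2, one of 0.053.

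Of 10 genes for bZIP partners and regulators of ATF4, 7 were tested and 0 were called (0.784% of all genes). The median log2 fold change was 0.0050, with 4 above and 3 below 0 (49.8% of all genes below). Without *Piezo1* cKO 2 that median was -0.15. *Cebpb*, which encodes a C/EBP partner of ATF4, had a log2 fold change of -0.21 (adjusted p = 0.553, edgeR). *Jun*, a subunit of AP-1, had one of -0.24, and *Nupr1*, a stress-induced chromatin protein gene, one of 0.34.

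Of 40 further genes known as ATF4 targets, 32 were tested and 0 were called. Their median log2 fold change was -0.12, with 22 below and 10 above 0 (49.8% of all genes below). An unadjusted p under 0.05 in edgeR was found for 3 below and 2 above, against 11.9% of all genes in either direction. *Chac1* and *Sesn3*, described next, are among the 10, and nothing is read from their direction. With at least 10 counts in every library, which leaves both out, the median was -0.14 over 29 genes. *Chac1*, which encodes a glutathione-degrading enzyme induced by ATF4, was at 11.5, 19.0 and 13.0 CPM in control and 27.9, 22.5 and 21.2 CPM in the cKO-labelled libraries. These groups did not overlap, but the counts were only 8 to 22 per library, and the log2 fold change of 0.69 had an adjusted p of 0.406 in edgeR. *Chac1* met the low-count filter in every cKO-labelled library but not in every control library. Nothing is therefore read from its direction or from the lack of overlap. *Sesn3*, a sestrin gene, was counted 8 times in each control library and 13, 14 and 12 times under the cKO label, and it passed the filter on low counts only through the cKO-labelled libraries, so that nothing is read from the direction of its value of 0.77 (adjusted p = 0.439, edgeR). *Eif4ebp1*, for the translation repressor 4E-BP1, and *Sqstm1*, for the autophagy receptor p62, had values of -0.23 and -0.25.

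The amino acid transporters had a median of -0.22 over the 10 of 15 that were tested. Below 0 were 8 (49.8% of all genes), and 0 were called (0.784% of all genes). *Slc3a2* encodes the heavy chain 4F2hc that carries both the cystine exchanger SLC7A11 and the leucine exchanger SLC7A5 to the cell surface. It was at 347, 397 and 355 CPM in control and 290.3, 242 and 284 CPM in the cKO-labelled libraries, and each of the latter lay below every control library. The fitted difference was -0.43 on the log2 scale with a standard error of 0.13 (adjusted p = 0.117 in edgeR and 0.202 in DESeq2), and without control 2 it was -0.36. *Slc7a5* was at 131, 234 and 75.6 CPM in control and 107, 60.8 and 75.5 CPM in the cKO-labelled libraries. Its log2 fold change of -0.87 (adjusted p = 0.62, edgeR) rested on control 2, and without that library it was -0.32, whereas without control 3 it was -1.19 with an adjusted p of 0.00707 (edgeR). *Slc7a1*, for a cationic amino acid transporter, had a value of 0.41, and *Slc6a6*, for the taurine transporter, one of -0.085.

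Of 22 other genes of serine, glycine and folate one-carbon metabolism, 18 were tested and 0 were called (0.784% of all genes). A log2 fold change below 0 was found for 14 (49.8% of all genes), with a median of -0.089. *Sfxn1*, which encodes the carrier that brings serine into mitochondria, was at 194, 257 and 199.6 CPM in control and 199, 135 and 129 CPM in the cKO-labelled libraries. As with *Shmt2*, *Piezo1* cKO 1 lay in the control range and the other *Piezo1* cKO libraries below it. The log2 fold change was -0.49 with an adjusted p of 0.117, and without *Piezo1* cKO 1 it was -0.73 with an adjusted p of 0.00191 (edgeR). Without control 2 it was -0.35 (adjusted p = 0.443, edgeR), without both control 2 and *Piezo1* cKO 2 it was -0.26 (adjusted p = 0.765, edgeR), and the DESeq2 adjusted p was 0.365. *Mat2a*, for S-adenosylmethionine synthesis, and *Dld*, for a subunit of the glycine cleavage system and other complexes, had values of -0.25 and -0.0066, and without control 2 that of *Dld* was 0.048.

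For proline, asparagine and glutamine metabolism all 12 genes were tested and 0 were called (0.784% of all genes). A value below 0 was found for 10 (49.8% of all genes), with a median of -0.16. That median was -0.094 without control 2 and -0.057 without both control 2 and *Piezo1* cKO 2. *Aldh18a1* and *Pycr1*, which encode the first and the last enzyme from glutamate to proline, had log2 fold changes of -0.34 and -0.30, and without control 2 these were -0.13 and 0.070, and without both control 2 and *Piezo1* cKO 2 they were 0.019 and 0.27. *Prodh*, for the enzyme that degrades proline, had a value of -0.76 (adjusted p = 0.416, edgeR). *Got2*, for the mitochondrial aspartate aminotransferase, and *Glud1*, for glutamate dehydrogenase, had values of -0.28 and -0.15, and without control 2 that of *Glud1* was 0.073.

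Neighbouring stress pathways were compared by the same counts. The list of endoplasmic reticulum chaperones and the other arms of the unfolded protein response had a median of 0.023 over 20 genes, with 11 above and 9 below 0 and 0 called. That median was -0.020 without *Piezo1* cKO 2 and -0.037 without both control 2 and *Piezo1* cKO 2. *Hsp90b1*, the gene of the chaperone GRP94, was at 949, 819.8 and 832 CPM in control and 702, 579.8 and 682 CPM in the cKO-labelled libraries, without overlap. EdgeR gave a log2 fold change of -0.40 (adjusted p = 0.167 in edgeR and 0.090 in DESeq2). *Hspa5*, the gene of the chaperone BiP, had a value of -0.26, while *Dnajb9* and *Edem1*, which are known targets of the IRE1 and XBP1 arm, had values of 0.48 and 0.41. *Edem1* was at 57.5, 75.9 and 69.7 CPM in control and at 100.1, 87.2 and 83.5 CPM in the cKO-labelled libraries, again without overlap, with an adjusted p of 0.359 in edgeR. In this list 2 genes were higher and 4 were lower in every cKO-labelled library than in any control library. Of all genes tested, 8.20% and 8.31% were.

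NRF2, like ATF4, has *Slc7a11* among its known targets. Over 16 NRF2 and glutathione genes the median was -0.11 with 10 below 0 (49.8% of all genes), and 0 were called (0.784% of all genes). *Srxn1*, which encodes sulfiredoxin, a repair enzyme of peroxiredoxins, came closest to the threshold. It was at 449, 502 and 416 CPM in control and 373, 271 and 327 CPM in the cKO-labelled libraries, each of the latter below every control library. A log2 fold change of -0.49 had a standard error of 0.14 and an adjusted p of 0.0567 in edgeR and 0.0957 in DESeq2, and *Srxn1* passed in 4 of 16 alternatives, the lowest adjusted p being 0.00772 in edgeR. Without control 2 it was at -0.41 (adjusted p = 0.202, edgeR), and without both control 2 and *Piezo1* cKO 2 at -0.30 (adjusted p = 0.54, edgeR). *Prdx1*, a peroxiredoxin gene, *Gclm*, for a subunit of the first enzyme of glutathione synthesis, and *Tkt*, for transketolase, had values of -0.34, -0.21 and -0.53. *Keap1*, for the repressor of NRF2, had a value of 0.44 and was higher in every cKO-labelled library than in any control library. In this list 1 gene was higher and 6 were lower in that way, against 8.20% and 8.31% of all genes tested. The 10 sestrin and p53 target genes had a median of 0.17 with 7 above 0 and 0 called, and without control 2 that median was -0.053. *Sesn3*, from whose direction nothing is read, is among the 7. With at least 10 counts in every library, which leaves *Sesn3* out, the median was 0.054 over 7 genes. *Sesn1* had a value of 0.28, *Phlda3* one of 0.30, *Cdkn1a* (the cell cycle inhibitor p21) one of -0.13 and *Ccng1* (cyclin G1) one of 0.039. Without control 2 the value of *Ccng1* was -0.11, without *Piezo1* cKO 2 those of *Phlda3* and *Cdkn1a* were 0.073 and -0.033, and without both that of *Sesn1* was -0.0064.

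**Figure D5:**
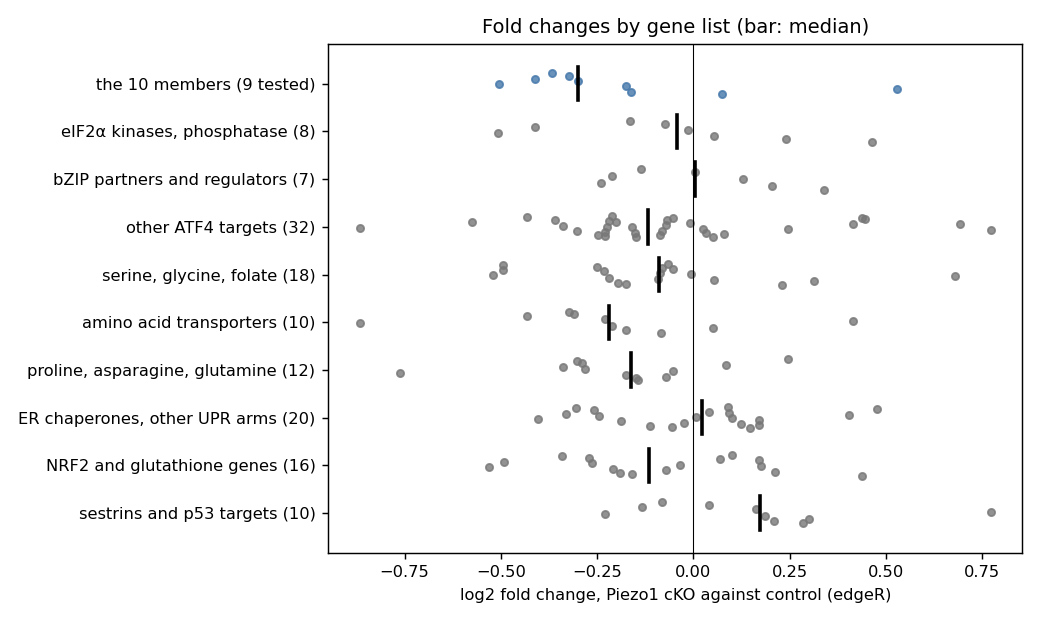
Log2 fold change of the cKO-labelled libraries against control (x axis) from edgeR for each tested gene (points) of the 10 genes and of 9 pathway lists (y axis, number tested in brackets), with the median of each list as a black bar. Medians run from -0.30 for the 10 genes to 0.17 for the sestrin and p53 list, beside 0.0021 for all genes tested, and some genes belong to more than 1 list.

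Among 4693 genes with a mean level of at least 50 CPM, the patterns most like the mean of the 9 genes over the 6 libraries were those of *Ppm1g* (Pearson r = 0.996), *Faf1* (0.99), *Ppp1r15b* (0.984), *Sh3bp5* (0.98) and *Nsun2* (0.979), and 149 genes reached a value of at least 0.9. With 6 libraries and this many genes such values are a description only. *Ppm1g* encodes a protein phosphatase and was at 186, 277 and 170 CPM in control and 197, 147 and 172 CPM in the cKO-labelled libraries. *Ppp1r15b* encodes the constitutive counterpart of GADD34 and was at 63.3, 73.6 and 61.4 CPM in control and 65.9, 59.4 and 63.6 CPM in the cKO-labelled libraries. In both, control 2 was the highest and *Piezo1* cKO 2 the lowest library, as in *Atf4*, *Psat1*, *Shmt2* and *Mthfd2*, and the groups overlapped.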

How the data were processed

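Per the labels, MuSCs were sorted by FACS and cultured for 3 days, and cDNA was made from 500 pg of RNA with barcoded oligo-dT primers and amplified by 12 PCR cycles, so that counts lie near the 3′ ends of transcripts. The authors' processing notes name STAR 2.7.9a, featureCounts 2.0.1, UMI-tools 1.1.1 and GRCm38. The deposited values are UMI counts per gene without normalisation, 1 column per library. Settings for strand and for reads with several matches are not given in the sources used here, so genes that overlap or have near-identical copies are uncertain.

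From these counts, genes were tested in R 4.3.3 with edgeR 4.0.16 (low-count filter with a minimum count of 10, TMM, robust quasi-likelihood fit, no covariate), with Benjamini-Hochberg adjustment and a threshold of 0.05. Standard errors were derived from the log2 fold change and its F statistic. Log2 CPM used a prior count of 2. Alternatives were DESeq2 1.42.0, limma-voom 3.58.1, DESeq2 size factors, total counts, cyclic loess, no filter, at least 10 counts in every library, thinning to the smallest library, a replicate block, each library left out in turn and, added after the data were seen, control 2 and *Piezo1* cKO 2 left out together. Calculations were tested on simulated data. Libraries were grouped by their labels, and no pair within a group was as alike as sampling noise alone would give (chi-square per degree of freedom between 1.64 and 2.61).

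The 10 genes and all lists were chosen with earlier results of these data known. Named were the 10 genes and, in each pathway list, any gene called by edgeR or DESeq2, otherwise the 3 with the largest absolute log2 fold change and the 2 with the highest mean CPM. In each marker list the most abundant gene and those called were named, and a few others after their values were seen. A few genes that this rule names are not reported here. Coordinates are from GENCODE on GRCm38, promoters from RefSeq on GRCm38.p6. The markers *Tnnc2*, *Ckm*, *Cdh5*, *Cldn5*, *Ptprc*, *Adgre1*, *Cd52* and *Kcnj8* were not analysed here.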

Additional observations from a re-analysis of the deposited data

How the results depend on the processing

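Across 16 alternatives the values of the tested genes of the ATF4 set gave 143 comparisons, of which 139 kept their direction and 1 passed the threshold, *Shmt2* without *Piezo1* cKO 1. *Ddit3*, *Sesn2* and *Slc7a11*, with the lowest counts of those tested, had the widest intervals, and *Trib3* had too few counts to be tested with the filter. No scaling moved the median of all genes by over 0.1, the furthest being 0.078 with total counts. Without both control 2 and *Piezo1* cKO 2, *Ddit3* was at 0.0023, *Mthfd2* at 0.023, *Asns* at 0.24, and the medians were -0.015 for the 9 genes, 0.072 for the eIF2 kinase and phosphatase list, -0.0012 for other ATF4 targets, -0.037 for the endoplasmic reticulum list, -0.11 for sestrins and p53 targets, and 1.05 for differentiating muscle markers. The cause of these changes was not tested. Genes called over all genes tested were 67, and 27 with DESeq2, 32 with cyclic loess, 129 with no filter and 6 to 174 with 1 library left out (6 without *Piezo1* cKO 2, 174 without *Piezo1* cKO 1). Other values that moved were the eIF2 list median with total counts (0.032), the bZIP list median with DESeq2 (-0.0081) and thinning (-0.032), the endoplasmic reticulum list median with total counts (0.099), cyclic loess (0.047) and thinning (0.0035), and the NRF2 list with a median of -0.031 under cyclic loess and 1 gene called, *Srxn1*, with no filter and with at least 10 counts in every library. The myogenic marker median was 0.017 with total counts, 0.095 with cyclic loess, 0.032 with no filter and 0.053 with at least 10 counts in every library.

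With 1 library left out, genes called among the 10 ranged from 0 to 1 and the median of those tested from -0.36 to -0.11. List medians ranged from -0.12 to 0.060 (eIF2), -0.15 to 0.083 (bZIP), -0.15 to -0.050 (other ATF4 targets), -0.18 to -0.027 (serine and folate), -0.33 to -0.097 (transporters), -0.29 to -0.094 (proline, asparagine and glutamine), -0.020 to 0.066 (endoplasmic reticulum), -0.21 to -0.066 (NRF2), -0.053 to 0.17 (sestrins and p53 targets) and -0.18 to 0.012 (myogenic markers). Genes called ranged from 0 to 1 in the other target, serine and folate, transporter and NRF2 lists. *Ddit3* ranged from -0.67 to 0.019, *Asns* from -0.081 to 0.21, *Mthfd2* from -0.26 to -0.031, *Sesn2* from 0.27 to 0.86, *Slc7a11* from -0.96 to -0.32 and *Shmt2* from -0.52 to -0.23. Over all 16 alternatives *Eif2b5* ranged from -0.054 to 0.21, *Slc6a6* from -0.20 to 0.049 and *Cdkn1a* from -0.23 to 0.050.

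The replicate numbers are shared by both groups, and the deviations of same-numbered libraries had correlations of -0.143, -0.203 and 0.0121. These values gave no sign of pairing. They cannot show whether same-numbered libraries share a litter, day or batch, which the labels do not state. With the replicate block, 46 genes were called in all and 0 of the 10, with a log2 fold change of -0.31 for *Atf4*, and *Acta1* was called.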
